A study of Mus musculus with 8 samples.

Results

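The genes described here carry pyruvate into the mitochondrion, turn it into acetyl-CoA, run the tricarboxylic acid cycle and refill it. Members were taken by name from a list of 36 genes, as rows of the deposited expression table annotated with that 1 gene symbol, and 35 of them had such a row among 19938 genes in all. Where a gene had several rows, the row brightest on average was used, which concerned Suclg2. The remaining gene, Mpc2, is not analysed here. RNA came from the hearts of 4 mice labelled MHC-Plin5 and 4 labelled control, and was measured on Affymetrix whole-transcript arrays. The MHC-Plin5 mice overexpress Plin5, which encodes the lipid droplet coat protein perilipin 5, in cardiomyocytes. All 8 mice were male, of the c57/bl background and 12 weeks old, and their hearts were labelled as fasted. The labels give the promoter of the transgene only as MHC and describe the other group only as control, so the transgenic line and the parentage of the controls are unknown here. Levels below are the authors' deposited log2 values. A difference is MHC-Plin5 minus control on that scale, and a gene is said to have risen or fallen where limma's Benjamini-Hochberg adjusted p over all 19938 genes was under 0.05.

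Pyruvate made from glucose or lactate enters the mitochondrial matrix through the pyruvate carrier. The pyruvate dehydrogenase complex then turns it into acetyl-CoA, and kinases switch this complex off while phosphatases switch it on. Acetyl-CoA from pyruvate, fatty acids or ketone bodies enters the cycle through citrate synthase, and the dehydrogenases of the cycle pass electrons to the respiratory chain. The fasting heart takes most of its acetyl-CoA from fatty acids, and anaplerotic reactions such as pyruvate carboxylation replace cycle intermediates that are drawn off.

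Plin5 lay at 12.17, 12.69, 12.63 and 12.08 in MHC-Plin5 hearts 1 to 4, against 8.92, 8.87, 9.04 and 8.58 in control hearts 1 to 4. The groups did not overlap, MHC-Plin5 hearts were higher by 11.7-fold, and an exact permutation test (two-sided) gave p = 0.0286, its smallest possible value with 4 hearts a group. The 12 cardiomyocyte markers, which include Myh6, Tnnt2 and Ryr2, had mean levels of 12.84 to 13.07 in MHC-Plin5 hearts and 13.04 to 13.11 in control hearts. Of the 12, 0 passed the test (2 at an unadjusted limma p under 0.05). The difference was below 0 in 10 of the 12, as in 57.5% of all genes, with a median of -0.11. Array medians ranged from 5.99 to 6.24, with 6.18 in MHC-Plin5 4 and 6.24 in control 2 as the highest. With 4 arrays in each group, precision was limited by their number. In whole hearts, fewer cells of a type and less RNA per cell cannot be told apart.

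Of the 35 genes, 4 fell in MHC-Plin5 hearts and 1 rose. Ogdhl, Me3, Sucla2 and Fh1 were the falling genes, and the malic enzyme gene Me2 was the rising one. Of all genes tested, 3.25% passed in either direction, 1.17% having fallen and 2.08% having risen. The difference was below 0 in 32 of the 35 genes, where 57.5% of all genes were below 0, and the median difference was -0.28, against -0.03 over all genes. The 4 MHC-Plin5 hearts lay below all 4 control hearts in 19 of the 35 genes, as they did in 5.0% of all genes, and above all 4 control hearts in 1 of the 35, as they did in 6.24% of all genes. The other 30 genes did not pass the test. At an unadjusted p under 0.05 stood 21 of the 35 genes, 20 of them below 0, against 16.6% of all genes, and the counts at that level given by role below stand against this share. The calls were sensitive to single hearts. No gene was called lower without MHC-Plin5 2, MHC-Plin5 3 or any single control heart (limma, 16 to 19 genes lower at an unadjusted p under 0.05 in each of these fits), while leaving out MHC-Plin5 1 gave 8 genes called lower and leaving out MHC-Plin5 4 gave 9. The median difference lay between -0.34 and -0.23 in these 8 fits, and 30 to 33 of the 35 differences were below 0 in each. Calls over the whole table moved as well. With all hearts, 233 of all genes were called lower, and the fits that called 0 of the 35 lower gave 56 to 132. Omitting MHC-Plin5 1 gave 268 over all genes, and omitting MHC-Plin5 4 gave 560. Without the 2 arrays with the highest medians, 1 of the 35 genes, Ogdhl, was called lower, while the count over all genes was 282.

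**Figure D1:**
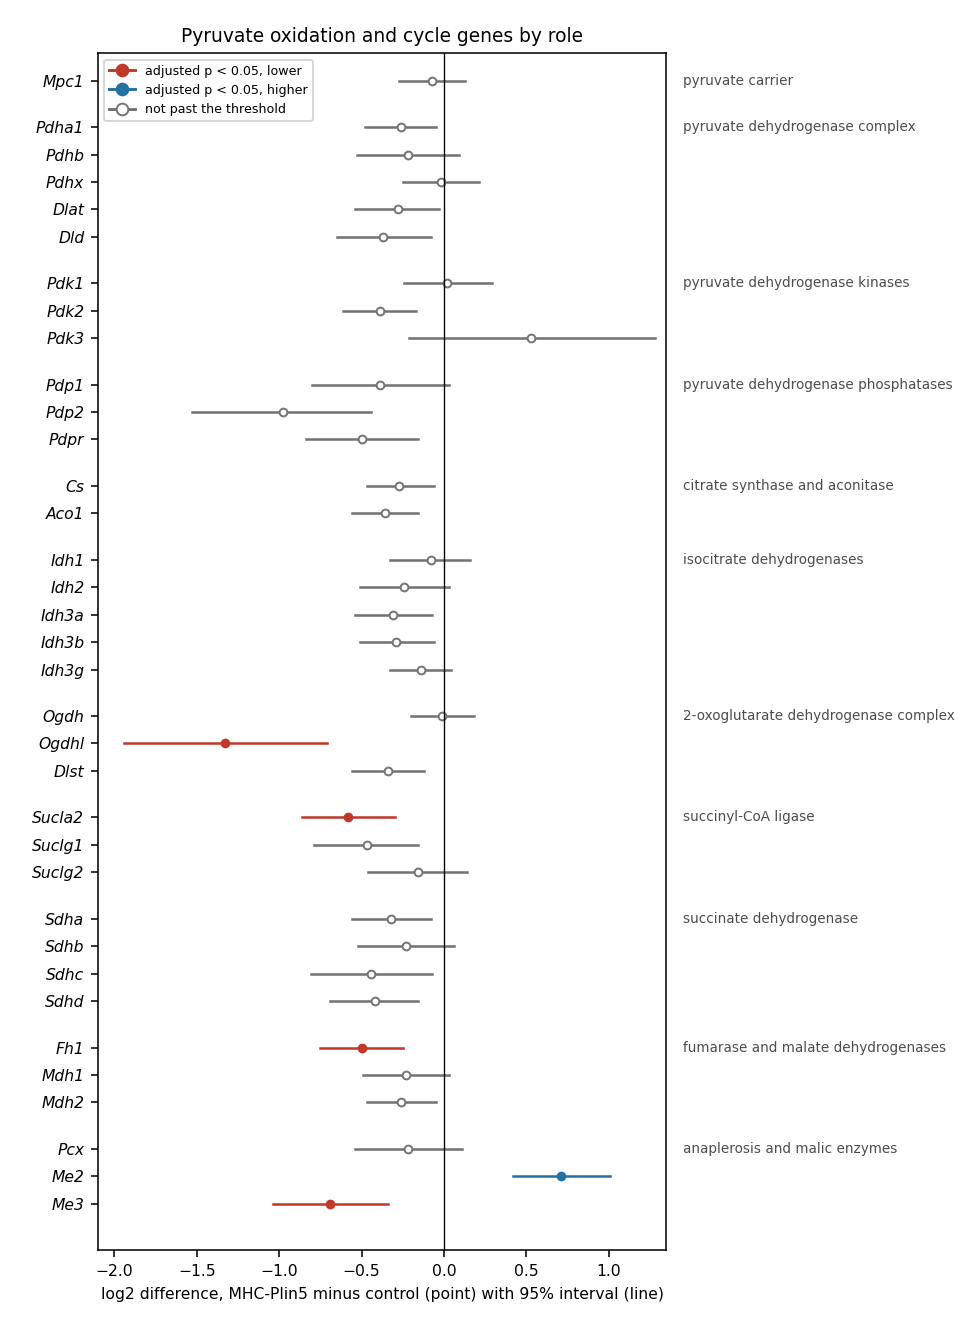
Log2 difference between MHC-Plin5 and control hearts (x axis, log2 units; points) with its 95% interval (lines) for the 35 genes, ordered from top to bottom by role. Of the filled points, the 4 red ones are the falling genes and the blue one is Me2, and 32 of the 35 points lie left of 0.

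Ogdhl, which encodes a relative of the first enzyme of the oxoglutarate dehydrogenase complex, showed the largest difference of the 35 genes. It lay at 9.21, 8.22, 7.93 and 9.34 in MHC-Plin5 hearts 1 to 4, against 9.97, 10.22, 10.05 and 9.77 in control hearts 1 to 4. All MHC-Plin5 hearts lay below all control hearts, and MHC-Plin5 2 and 3 were the lowest. The level was 2.51-fold lower in MHC-Plin5 hearts (difference -1.33, SE 0.28, limma adjusted p = 0.0303). The call ended without MHC-Plin5 2, MHC-Plin5 3 or any single control heart, where the adjusted p lay between 0.0531 and 0.0995, and with an intensity trend and robust variances (adjusted p = 0.0577).

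Ogdh, the main form of the same enzyme, was close to equal in both groups. It averaged 12.81 ± 0.07 in MHC-Plin5 hearts and 12.82 ± 0.05 in control hearts (SD, n = 4 each), and the 95% interval of its difference ran from -0.20 to 0.18. Dlst, the second enzyme of the complex, was not past the threshold at -0.34 (SE 0.10, adjusted p = 0.106), although its groups did not overlap. The adjusted p of Dlst was 0.0477 without MHC-Plin5 4, 0.026 with array weights and 0.0451 after a further quantile normalization. It was 0.27 without MHC-Plin5 2, the highest of the alternatives. The third enzyme, Dld, is shared with the pyruvate dehydrogenase complex and is given there.

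**Figure D2:**
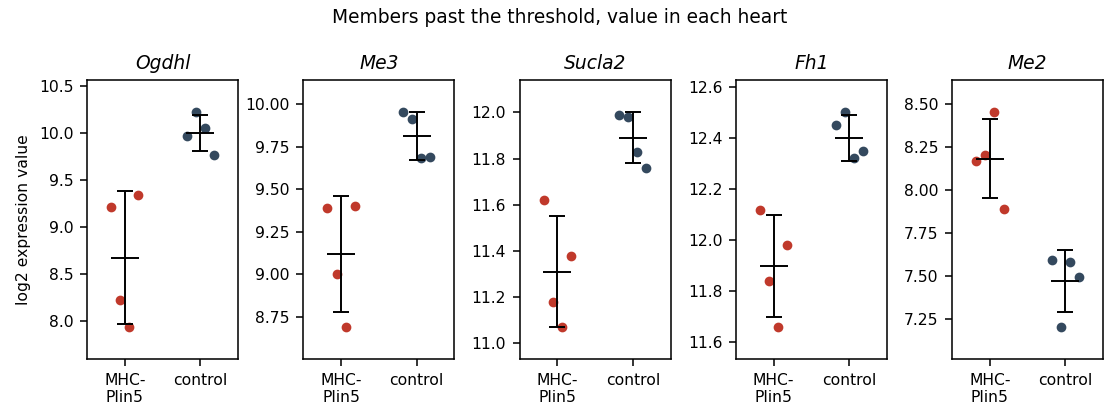
Deposited log2 value (y axis, a separate range for each panel) of the 5 genes past the threshold in each of the 4 MHC-Plin5 hearts (left) and 4 control hearts (right). Black bars give the mean and SD of the 4 hearts, and in each panel the groups do not overlap.

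The proximal promoters of the 4 falling genes are shown because these are the sequences closest to where their transcription starts. Each is the stretch of 250 bases before the start in RefSeq's GRCm38.p6 annotation, written along the gene's own strand. The window of Ogdhl is chr14:32321769-32322018 on the plus strand, and that of Sucla2 is chr14:73552536-73552785 on the plus strand. The window of Fh1 is chr1:175625636-175625885 on the minus strand, and that of Me3 is chr7:89632568-89632817 on the plus strand. Capitals mark letters that match a searched motif on either strand.
Ogdhl: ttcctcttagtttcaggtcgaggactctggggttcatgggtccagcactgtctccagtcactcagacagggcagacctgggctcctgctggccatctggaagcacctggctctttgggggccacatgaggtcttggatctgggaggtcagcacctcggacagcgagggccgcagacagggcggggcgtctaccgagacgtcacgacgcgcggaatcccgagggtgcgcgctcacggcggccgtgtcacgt
Sucla2: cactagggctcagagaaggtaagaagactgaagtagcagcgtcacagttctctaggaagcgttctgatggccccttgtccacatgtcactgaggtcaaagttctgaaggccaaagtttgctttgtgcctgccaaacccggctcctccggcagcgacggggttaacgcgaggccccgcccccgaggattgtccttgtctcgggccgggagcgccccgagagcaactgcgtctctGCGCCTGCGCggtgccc
Fh1: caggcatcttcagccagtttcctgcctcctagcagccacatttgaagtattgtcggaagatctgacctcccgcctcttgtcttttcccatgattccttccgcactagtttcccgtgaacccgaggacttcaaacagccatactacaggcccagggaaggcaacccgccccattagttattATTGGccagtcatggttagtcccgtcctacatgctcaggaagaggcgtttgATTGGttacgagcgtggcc
Me3: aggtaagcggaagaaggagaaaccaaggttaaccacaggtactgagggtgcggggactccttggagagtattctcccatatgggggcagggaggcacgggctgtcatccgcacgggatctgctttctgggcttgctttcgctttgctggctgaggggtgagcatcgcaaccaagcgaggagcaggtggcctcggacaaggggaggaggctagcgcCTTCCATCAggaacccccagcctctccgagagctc

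The search covered 8 motifs in windows of 300 bases, 250 before to 50 after the start, and 31 of the 35 genes had such a window. In Sucla2 the capitals at -17 are the NRF1 pattern, GCGC followed after any 2 bases by GCGC. Fh1 held the CCAAT box as ATTGG at -70 and -19. In Me3 the match at -35 is to TGATGNAAN, the pattern of the element that ATF4 binds, on the opposite strand. Ogdhl held none of the 8 motifs, which says only that these letters are not in its window. Over the whole set, the NRF1 pattern lay in 5 of 31 genes (16.1%, against 7.0% of all 27025 genes with a window), and CCGGAAG, the core bound by ETS factors such as GABP, in 6 of 31 (19.4% against 9.93%). CCAAT lay in 18 of 31 (58.1% against 41.1%) and the cyclic AMP element TGACGTCA in 3 of 31 (9.68% against 2.03%). The core of the element bound by oestrogen-related receptors, AAGGTCA, lay in 2 of 31 (6.45% against 5.38%), and its longer form TCAAGGTCA, which overlaps it, in 1 of 31 (3.23% against 0.466%). TGATGNAAN lay in 1 of 31 (3.23% against 4.5%), and the PPAR direct repeat, a pair of AGGTCA copies 1 base apart, in 0 of 31 (against 0.0481%). Genes with several annotated starts had more windows, which was the case for 6 of the 31, and no test was made of these shares.

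At the entry of pyruvate, 0 of the 12 measured genes passed the test (limma, 6 at an unadjusted p under 0.05). Their median difference was -0.27, and 10 of the 12 were below 0. Mpc1, a subunit of the pyruvate carrier, lay at 12.67, 12.48, 12.45 and 12.57 in MHC-Plin5 hearts 1 to 4, against 12.64, 12.63, 12.64 and 12.54 in control hearts 1 to 4. The groups of Mpc1 overlapped, and the 95% interval of the difference ran from -0.27 to 0.13.

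In the pyruvate dehydrogenase complex, all 5 measured genes were below 0 and none passed (3 at an unadjusted limma p under 0.05). Dld, the dihydrolipoamide dehydrogenase that this complex shares with the oxoglutarate one, had the smallest p. Its levels were 10.68, 10.45, 10.11 and 10.67 in MHC-Plin5 hearts 1 to 4, against 10.92, 10.87, 10.80 and 10.80 in control hearts 1 to 4. The groups of Dld did not overlap, MHC-Plin5 3 was the lowest heart, and the difference was -0.37 (SE 0.13, adjusted p = 0.168). Pdha1, the alpha subunit of the first enzyme, had -0.26, its beta subunit Pdhb -0.22 and Dlat, the acetyltransferase core, -0.28. Pdhx, which holds Dld to the core, was at -0.02 with a 95% interval from -0.25 to 0.21.

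Of the kinases that switch the complex off, 0 of 3 passed (1 at an unadjusted limma p under 0.05), and 1 of the 3 was below 0. Pdk2, an abundant kinase form of the heart, lay at 11.86, 11.65, 11.47 and 11.64 in MHC-Plin5 hearts 1 to 4, against 12.02, 12.05, 12.08 and 12.03 in control hearts 1 to 4. Its groups did not overlap, but the difference of -0.39 (SE 0.10, adjusted p = 0.0633) missed the threshold. Without MHC-Plin5 1 the adjusted p of Pdk2 was 0.038. Array weights, a filter at a mean of 7, a further quantile normalization or a trend with robust variances gave 0.0255 to 0.0426. It was 0.17 without control 3, the highest of the alternatives. Pdk1 was at 0.02, with a 95% interval from -0.24 to 0.29, and its sign turned in 4 of 18 alternatives, among them a further quantile normalization (-0.02). Pdk3 lay at 6.25, 6.72, 8.17 and 6.66 in MHC-Plin5 hearts 1 to 4, against 6.09, 6.47, 6.28 and 6.81 in control hearts 1 to 4. MHC-Plin5 3 stood above every other heart, the other MHC-Plin5 hearts overlapped the controls, and the difference of 0.53 (SE 0.34, adjusted p = 0.481) became 0.13 without that heart.

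Pdk4, the kinase form that fasting induces in heart, is outside the 35 genes and lay at 11.23, 12.96, 12.41 and 11.34 in MHC-Plin5 hearts 1 to 4, against 12.45, 12.44, 12.32 and 11.92 in control hearts 1 to 4. MHC-Plin5 2 was the highest and MHC-Plin5 1 the lowest of the 8 hearts, and the difference of -0.30 (SE 0.33, adjusted p = 0.724) was not past the threshold. It was -0.62 with MHC-Plin5 2 left out, -0.05 with MHC-Plin5 1 left out and -0.08 with MHC-Plin5 4 left out.

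The phosphatases that switch the complex on were all below 0, and 0 of the 3 passed (2 at an unadjusted limma p under 0.05). Pdp2, a catalytic phosphatase, lay at 6.98, 5.90, 6.13 and 6.97 in MHC-Plin5 hearts 1 to 4, against 7.75, 7.31, 7.71 and 7.13 in control hearts 1 to 4. The groups of Pdp2 did not overlap, and the level was 1.98-fold lower in MHC-Plin5 hearts (difference -0.98, SE 0.25, adjusted p = 0.0596). It passed with MHC-Plin5 1 left out (adjusted p = 0.0365), with MHC-Plin5 4 left out (0.0274) and with array weights (0.0127). The highest adjusted p of Pdp2 over the alternatives was 0.171, with control 1 left out. Pdpr, the regulatory subunit of the phosphatase, lay at 10.44, 9.95, 9.80 and 10.52 in MHC-Plin5 hearts 1 to 4, against 10.64, 10.73, 10.74 and 10.61 in control hearts 1 to 4. Its groups did not overlap either, with a difference of -0.50 (SE 0.16, adjusted p = 0.12). The adjusted p was 0.0377 without MHC-Plin5 4, 0.024 with array weights and, at its highest, 0.306 without MHC-Plin5 2. Pdp1, the other catalytic phosphatase, was at -0.39 (SE 0.19, adjusted p = 0.348), and MHC-Plin5 1 and 4 lay among the controls there.

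Among the 20 genes of the cycle, 3 fell, 0 rose and all 20 were below 0, with a median difference of -0.30. At the first steps, Cs, the citrate synthase, averaged 12.85 ± 0.13 in MHC-Plin5 hearts and 13.12 ± 0.01 in control hearts (SD, n = 4 each). Its groups did not overlap, and its difference of -0.27 (SE 0.09, adjusted p = 0.167) did not pass, except with array weights (adjusted p = 0.042). Aco1, the cytosolic aconitase that also acts as an iron-regulatory protein, lay at 8.83, 8.63, 8.69 and 8.62 in MHC-Plin5 hearts 1 to 4, against 9.05, 9.03, 9.10 and 9.03 in control hearts 1 to 4. All MHC-Plin5 hearts of Aco1 lay below all control hearts, and the adjusted p was 0.0569 (difference -0.36, SE 0.09). It was 0.0185 to 0.0453 with either filter on dim genes, array weights, a further quantile normalization or a trend with robust variances. Without MHC-Plin5 2 it was 0.177, the highest of the alternatives.

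The 5 isocitrate dehydrogenase genes were all below 0 and none passed (2 at an unadjusted limma p under 0.05). Idh3a, the catalytic subunit of the NAD-dependent enzyme of the cycle, lay at 12.04, 11.82, 11.77 and 12.13 in MHC-Plin5 hearts 1 to 4, against 12.26, 12.36, 12.21 and 12.15 in control hearts 1 to 4. The groups of Idh3a did not overlap, with a difference of -0.31 (SE 0.11, adjusted p = 0.169). The other subunits had -0.29 (Idh3b) and -0.14 (Idh3g), the NADP-dependent mitochondrial form Idh2 had -0.24 and the cytosolic form Idh1 had -0.08.

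Succinyl-CoA ligase, the step that makes a nucleoside triphosphate directly, has an alpha subunit that pairs with an ATP-forming or a GTP-forming beta subunit. Sucla2, the ATP-forming beta subunit, fell. It lay at 11.62, 11.18, 11.07 and 11.38 in MHC-Plin5 hearts 1 to 4, against 11.99, 11.98, 11.83 and 11.76 in control hearts 1 to 4. The groups did not overlap, and the level was 1.49-fold lower in MHC-Plin5 hearts (difference -0.58, SE 0.13, adjusted p = 0.0349). The shared alpha subunit Suclg1 had -0.47 (SE 0.14, adjusted p = 0.109). Its adjusted p was 0.0368 without MHC-Plin5 4, 0.024 with array weights and, at its highest, 0.285 without MHC-Plin5 2. Suclg2, the GTP-forming beta subunit, had -0.16 in each of its 2 rows, with a 95% interval from -0.46 to 0.14 for the row used. The call of Sucla2 ended without MHC-Plin5 2, MHC-Plin5 3 or any single control heart, with an adjusted p of 0.0655 to 0.121, and without both arrays with the highest medians (0.0847).

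Succinate dehydrogenase, which is also complex II of the respiratory chain, had all 4 subunit genes below 0 and 0 of them past the threshold (3 at an unadjusted limma p under 0.05). Sdhd, a membrane anchor, lay at 11.81, 11.39, 11.31 and 11.59 in MHC-Plin5 hearts 1 to 4, against 12.00, 12.04, 11.92 and 11.83 in control hearts 1 to 4. The groups of Sdhd did not overlap, and the difference was -0.42 (SE 0.12, adjusted p = 0.0923). This adjusted p was 0.0375 without MHC-Plin5 1, 0.0392 with array weights and 0.0494 with a trend and robust variances. It rose to 0.249 without MHC-Plin5 2, the highest of the alternatives. The other anchor Sdhc had -0.44 (SE 0.17, adjusted p = 0.204). Its adjusted p was 0.0256 without MHC-Plin5 4, 0.0331 with array weights and, at its highest, 0.463 without MHC-Plin5 3. The flavoprotein Sdha had -0.32 (adjusted p = 0.151, 0.0461 with array weights and up to 0.357, without MHC-Plin5 3). The iron-sulfur subunit Sdhb had -0.23.

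Fh1, the fumarase, fell. It lay at 12.12, 11.84, 11.66 and 11.98 in MHC-Plin5 hearts 1 to 4, against 12.45, 12.50, 12.32 and 12.35 in control hearts 1 to 4. All MHC-Plin5 hearts lay below all control hearts, and the level was 1.42-fold lower in MHC-Plin5 hearts (difference -0.50, SE 0.11, adjusted p = 0.0385). The malate dehydrogenases were not past the threshold, with -0.23 for the cytosolic Mdh1 (adjusted p = 0.368) and -0.26 for the mitochondrial Mdh2 (adjusted p = 0.179). The call of Fh1 ended without MHC-Plin5 2, MHC-Plin5 3 or any single control heart, with an adjusted p of 0.0847 to 0.125, without both arrays with the highest medians (0.0775) and with the heart number as a block (0.0642).

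Among the genes of anaplerosis and malate decarboxylation, the 2 mitochondrial malic enzymes went in opposite directions. Both turn malate into pyruvate, Me2 with NAD and Me3 with NADP. Me2 lay at 8.17, 8.20, 8.45 and 7.89 in MHC-Plin5 hearts 1 to 4, against 7.59, 7.20, 7.58 and 7.49 in control hearts 1 to 4. All MHC-Plin5 hearts lay above all control hearts, and the MHC-Plin5 level was 1.64 times that of the control hearts (difference 0.71, SE 0.14, adjusted p = 0.0186). Me3 lay at 9.39, 9.0, 8.69 and 9.40 in MHC-Plin5 hearts 1 to 4, against 9.95, 9.91, 9.68 and 9.69 in control hearts 1 to 4. All MHC-Plin5 hearts of Me3 lay below all control hearts, and MHC-Plin5 hearts were lower by 1.61-fold (difference -0.69 with SE 0.16, limma adjusted p = 0.041). The call of Me2 ended without MHC-Plin5 2 (adjusted p = 0.0644), control 2 (0.052) or control 4 (0.0507). That of Me3 ended without MHC-Plin5 2, MHC-Plin5 3 or any single control heart, with an adjusted p of 0.0773 to 0.13, and without both arrays with the highest medians (0.06). Pcx, the pyruvate carboxylase that makes oxaloacetate, was at -0.22 (SE 0.15, adjusted p = 0.524) with a 95% interval from -0.54 to 0.11.

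Genes for the same kind of reaction were set against each other within each heart, which shows unequal change but not which of the pair moved. In 5 of 7 pairs the difference between the genes did not overlap between the groups, with p = 0.0286 in a two-sided exact permutation test, again its smallest possible value, and 0.04 after Benjamini-Hochberg adjustment over the 7 pairs. Me2 minus Me3 was -0.94 ± 0.55 in MHC-Plin5 hearts and -2.34 ± 0.27 in control hearts (SD, n = 4 each), a shift of 1.40. MHC-Plin5 hearts lay above all control hearts for Me2 and below them for Me3, so this pair had to separate. Its p therefore adds nothing to the calls of Me2 and Me3. Ogdh minus Ogdhl was 4.14 ± 0.65 in MHC-Plin5 hearts and 2.82 ± 0.22 in control hearts (SD, n = 4 each), a shift of 1.32. The groups of Ogdhl lay 0.43 apart and Ogdh spanned only 12.73 to 12.90 over the 8 hearts. This pair therefore had to separate too, and its p adds nothing to the call of Ogdhl. The pairs were drawn from genes chosen with earlier results of these data known. No share over other gene pairs was computed to set beside the 5 of 7.

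Smaller shifts stood in the other 3 pairs. Sucla2 minus Suclg2 was 0.83 ± 0.16 in MHC-Plin5 hearts and 1.25 ± 0.12 in control hearts (SD, n = 4 each), a shift of -0.42 (SE 0.10), so the ATP-forming subunit was lower relative to the GTP-forming one. Pdk1 minus Pdk2 shifted by 0.41 (SE 0.12) and Pdp1 minus Pdp2 by 0.60 (SE 0.14). Idh2 minus Idh3a shifted by 0.07 (SE 0.08, exact permutation p = 0.429, adjusted 0.5) and Mdh1 minus Mdh2 by 0.03 (SE 0.16, exact permutation p = 0.914, adjusted 0.914), and the groups overlapped in both. An eighth pair, Mpc1 and Mpc2, was not run.

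**Figure D3:**
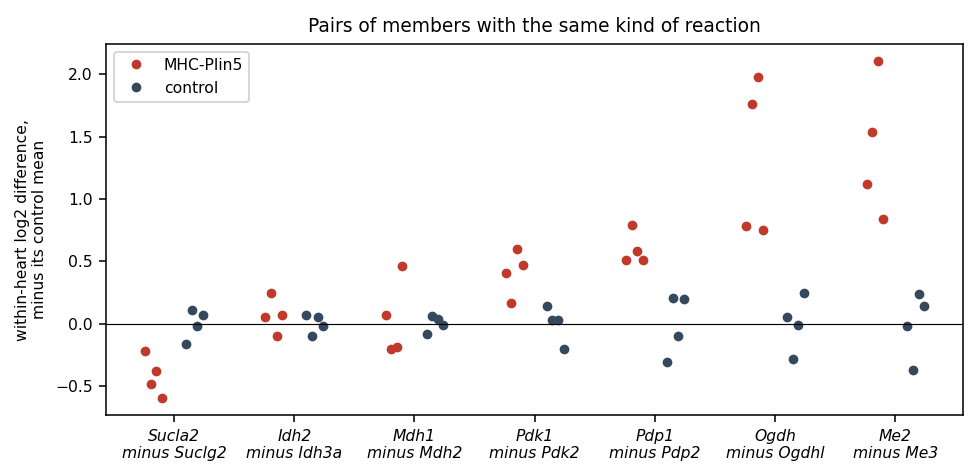
Within-heart log2 difference between 2 genes, less its mean in the 4 control hearts (y axis, log2 units), for the 7 pairs, with the 4 MHC-Plin5 hearts in red on the left and the 4 control hearts in dark grey on the right of each pair. The groups separate in 5 pairs and overlap for Idh2 minus Idh3a and Mdh1 minus Mdh2.

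The 4 MHC-Plin5 hearts differed among themselves along the whole set. The median deviation of the 35 genes from the control mean was -0.16, -0.40, -0.49 and -0.12 in MHC-Plin5 hearts 1 to 4, against 0.02, 0.03, 0.02 and -0.07 in control hearts 1 to 4. MHC-Plin5 3 was the lowest of the 8 hearts in 24 of the 35 genes and MHC-Plin5 2 in 7. Hearts 2 and 3 were the 2 lowest MHC-Plin5 hearts in 29 of the 35 genes (82.9%), as they were in 28.6% of all genes. Of the 35 genes, 24, 32, 31 and 20 lay below the lowest control heart in MHC-Plin5 hearts 1 to 4. Hearts 2 and 3 also had the higher Plin5 levels (12.69 and 12.63, against 12.17 and 12.08 in hearts 1 and 4), which with 4 hearts is a description without a test. Over all genes the median deviation was -0.06, -0.06, -0.07 and 0.07 in MHC-Plin5 hearts 1 to 4.

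**Figure D4:**
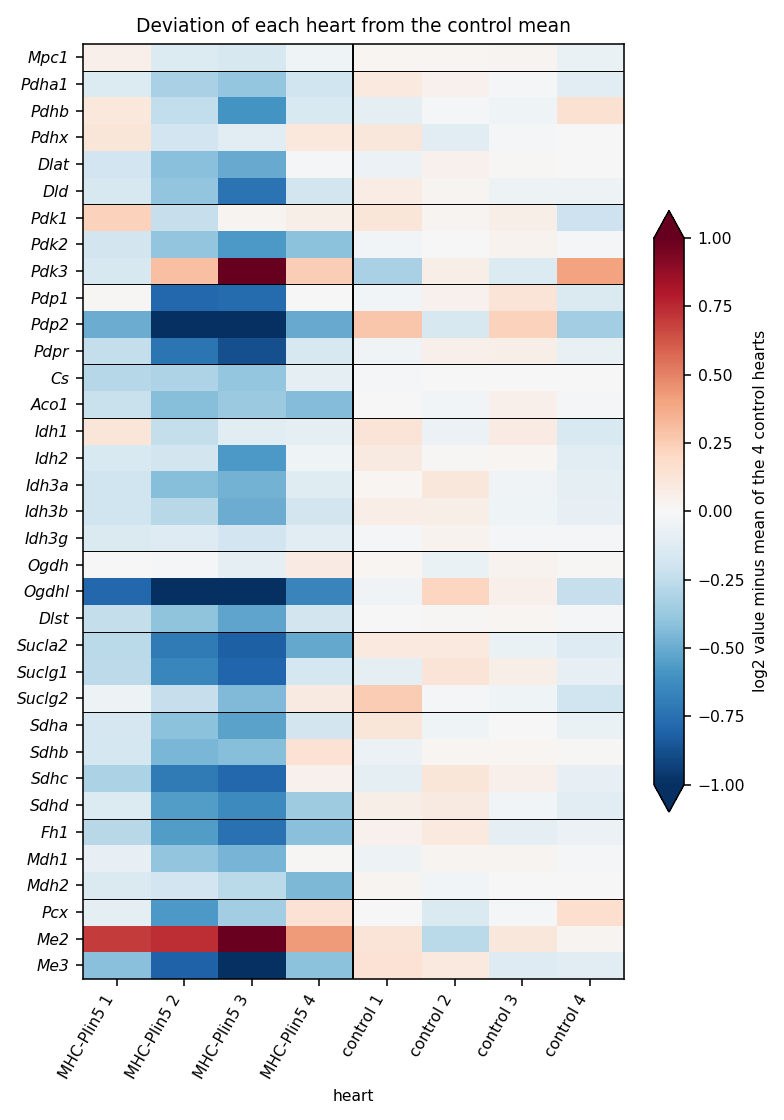
Deposited log2 value of each gene (rows, grouped by role in the order of the text) in each heart (columns, MHC-Plin5 left of the black line and control right of it), less the mean of the 4 control hearts. The colour scale ends at -1 and 1, blue is below and red above the control mean, and the columns of MHC-Plin5 2 and 3 hold the deepest blue.

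Markers of other cells differed between these hearts too. In MHC-Plin5 3 the 8 fibroblast markers averaged 9.78, against 8.99 to 9.47 in control hearts, the 8 macrophage markers 8.99 against 8.14 to 8.58, and the 7 markers of smooth muscle and pericytes 9.93 against 9.01 to 9.40. The cardiomyocyte markers averaged 12.84 in that heart, against 13.04 to 13.11 in control hearts. In MHC-Plin5 2 the fibroblast markers averaged 9.38 and the macrophage markers 8.36, within the control range. The cardiomyocyte markers averaged 12.97 there, below every control heart. In MHC-Plin5 4, where the median deviation of the 35 genes was closest to 0 of the 4 MHC-Plin5 hearts (-0.12), the fibroblast markers averaged 9.57 and the macrophage markers 8.85, also above every control heart, and the cardiomyocyte markers 13.07. Over all 4 MHC-Plin5 hearts the ranges were 9.11 to 9.78 for fibroblasts, 8.36 to 8.99 for macrophages and 8.87 to 9.93 for smooth muscle and pericytes, and 1 gene of these 3 lists passed the test, the pericyte channel gene Kcnj8, which fell (difference -0.43). Endothelial markers ranged from 9.90 to 10.06 in MHC-Plin5 hearts and from 9.98 to 10.10 in control hearts. Adipocyte markers ranged from 5.82 to 6.23 in MHC-Plin5 hearts and from 5.94 to 7.13 in control hearts. Atrial markers varied most, from 7.91 to 11.29 in MHC-Plin5 hearts and from 7.08 to 11.05 in control hearts. Of the MHC-Plin5 hearts, MHC-Plin5 3 was the highest, above every control heart, and MHC-Plin5 2 the lowest. The difference was above 0 in all 6 atrial markers, with a median of 0.88. None of the 6 passed the test (1 at an unadjusted limma p under 0.05). None of 5 lymphocyte, 6 neutrophil and 2 erythroid markers passed (limma, 1, 3 and 0 of them at an unadjusted p under 0.05). In the list of 7 skeletal muscle markers Acta1 rose (difference 1.90). The other 6 did not pass, and the median difference of that list was 0.01. The part of cell makeup in the differences above was not tested.

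The spread between hearts was wider in the MHC-Plin5 group for every one of the 35 genes, where 56.2% of all genes had the larger SD there. The same held for 33 of 34 complex I subunits (97.1%) and 21 of 23 genes of mitochondrial fatty acid oxidation (91.3%). The median SD of the 35 genes was 0.22 in MHC-Plin5 hearts and 0.09 in control hearts (n = 4 each), against 0.17 and 0.15 over all genes. Cs had an SD of 0.13 in MHC-Plin5 hearts and 0.01 in control hearts, and Ogdhl had an SD of 0.71 in MHC-Plin5 hearts and 0.19 in control hearts. The limma fit uses 1 spread for both groups.

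**Figure D5:**
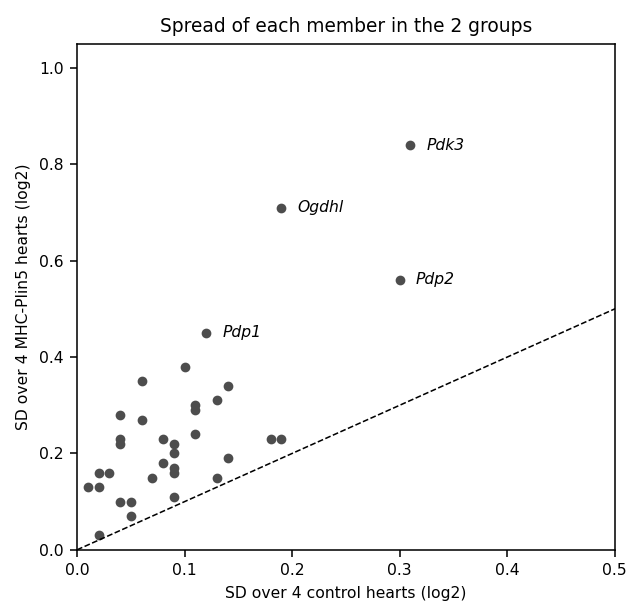
SD over the 4 MHC-Plin5 hearts (y axis, log2 units) against the SD over the 4 control hearts (x axis, log2 units) for the 35 genes, 1 point a gene. The dashed line marks equal SD, and all 35 points lie above it.

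Next to the cycle, 41 of 46 listed neighbouring genes were measured, among them transaminases, lactate dehydrogenases, carriers and assembly factors. Of these, 4 fell and 1 rose, against 1.17% and 2.08% of all genes. The difference was below 0 in 36, against 57.5% of all genes, and the median difference was -0.19. At an unadjusted limma p under 0.05 stood 18 of the 41, against 16.6% of all genes. Pck2, the mitochondrial enzyme that turns oxaloacetate into phosphoenolpyruvate, was the rising one, at 7.26, 7.25, 7.49 and 7.14 in MHC-Plin5 hearts 1 to 4, against 6.83, 6.84, 6.77 and 6.94 in control hearts 1 to 4. Its groups did not overlap (difference 0.44, SE 0.10, adjusted p = 0.0421). Pccb, the beta subunit of propionyl-CoA carboxylase, which feeds the cycle at succinyl-CoA, lay at 9.19, 8.91, 8.91 and 9.20 in MHC-Plin5 hearts 1 to 4, against 9.80, 9.80, 9.64 and 9.57 in control hearts 1 to 4. The MHC-Plin5 hearts were lower by 1.57-fold for Pccb (difference -0.65 with SE 0.11, limma adjusted p = 0.0108) and its call held whichever heart was omitted. The alpha subunit Pcca had -0.46 (adjusted p = 0.0855). Its adjusted p was 0.0399 without MHC-Plin5 4, 0.0217 with array weights and, at its highest, 0.226 without MHC-Plin5 2.

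Acss1, which makes acetyl-CoA from acetate in mitochondria, averaged 11.36 ± 0.16 in MHC-Plin5 hearts and 11.90 ± 0.13 in control hearts (SD, n = 4 each; log2 difference -0.53, adjusted p = 0.0293). Ldhd, which oxidises D-lactate to pyruvate, averaged 7.75 ± 0.16 in MHC-Plin5 hearts and 8.32 ± 0.17 in control hearts (SD, n = 4 each; log2 difference -0.57, adjusted p = 0.0272). Adhfe1, a mitochondrial transhydrogenase that uses oxoglutarate, averaged 10.21 ± 0.45 in MHC-Plin5 hearts and 11.14 ± 0.30 in control hearts (SD, n = 4 each; log2 difference -0.93, adjusted p = 0.0411). Not past the threshold were Abat (-0.59, adjusted p = 0.0722), D2hgdh (-0.44, adjusted p = 0.114) and Gpt (-0.53, adjusted p = 0.145). With array weights the adjusted p was 0.0422 for Abat, 0.0271 for D2hgdh and 0.0228 for Gpt. D2hgdh (0.0368) and Gpt (0.0394) also passed without MHC-Plin5 4, and Abat (0.0493) with the filter at a mean of 7. Without MHC-Plin5 2 it was 0.213 for Abat, 0.297 for D2hgdh and 0.352 for Gpt. The calls of Acss1, Adhfe1 and Pck2 ended without MHC-Plin5 2, MHC-Plin5 3 or any single control heart, that of Ldhd without MHC-Plin5 2, MHC-Plin5 3, control 1, control 2 or control 3, that of Pck2 also without MHC-Plin5 1 and that of Adhfe1 also without MHC-Plin5 4, with adjusted p values up to 0.133. Centring each array on its median also ended the calls of Acss1 (0.0579), Adhfe1 (0.0677) and Pck2 (0.0604), leaving out both arrays with the highest medians those of Acss1 (0.0584), Adhfe1 (0.0757) and Ldhd (0.0575), and the heart number as a block that of Pck2 (0.114).

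Beside other mitochondrial lists, the median difference of the 35 genes (-0.28) lay near that of complex I and less far below 0 than that of fatty acid oxidation. Of 23 measured genes of mitochondrial fatty acid oxidation 7 fell, with a median difference of -0.48, and of 34 complex I subunits 1 fell, with a median of -0.26. Of all genes 1.17% fell. At an unadjusted limma p under 0.05 stood 19 of the 23 and 19 of the 34, against 16.6% of all genes. By heart, the median deviation of the oxidation genes was -0.33, -0.55, -0.79 and -0.29 in MHC-Plin5 hearts 1 to 4, and that of complex I -0.15, -0.33, -0.51 and -0.11, with hearts 2 and 3 lowest in both. The differences between the lists were not tested.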

How the data were processed

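Arrays of 8 hearts were analysed from the authors' deposited log2 values. The submitters' processing notes name RMA and Affymetrix Expression Console, without versions or settings. Scanner files were not used, so RMA was taken as it stood, and no scan or slide batch could be examined. GEO's annotation gave exactly 1 gene symbol to 21789 of 35556 rows, and these gave 19938 genes, without a filter.

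Each gene was tested with limma 3.58.1 in R 4.3.3 (lmFit and eBayes, genotype as sole term, two-sided). Pairs of genes were tested by exact permutation over the 70 splits of the hearts with scipy 1.17.1. The members, lists and motifs were chosen with earlier results of these data known. All 35 measured members are named, with values in every heart for those called, those with the smallest p of each role and those with a difference of at least 0.5. Neighbouring genes named are those called, Pdk4 and the 4 with the next smallest p. Hearts were treated as separate animals, since the design text speaks of 4 mice in each genotype. Alternatives were 2 filters on dim genes (mean of 5 or 7), a second quantile step, centring on array medians, a trend with robust variances, array weights, averaging of rows, omission of each heart, a replicate block and a threshold of 0.01. Omission of both arrays with the highest medians was added after the data were seen. The array weights were 1.08, 1.901, 0.751 and 0.408 in MHC-Plin5 hearts 1 to 4. In control hearts 1 to 4 they were 1.266, 0.491, 1.971 and 1.297. Among the MHC-Plin5 hearts, that setting thus counted MHC-Plin5 2 most and MHC-Plin5 4 least.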

Additional observations from a re-analysis of the deposited data

Results flagged for a closer look

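Outlying hearts were sought in 90 groups of 4 hearts (the 35 genes and 10 neighbouring ones, in MHC-Plin5 and in control hearts). The gap of a heart to the nearest other heart was divided by the range of the 4 hearts. This ratio exceeded Dixon's 95% critical value for 4 samples in 4 of the 90 groups. Chance gives about 1 in 20, and 4 of 90 is not above that share. All 4 outlying values came from control hearts, and 3 of them from control 1. Cs in control 1 was 13.10, against 13.12 in each of the other control hearts. Sdhb in control 1 was 12.16, against 12.23 to 12.24 in the others. D2hgdh in control 1 was 8.40, against 8.05 to 8.09 in the others. Mpc1 in control 4 was 12.54, against 12.63 to 12.64 in the others.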

How the results depend on the processing

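The median difference of the 35 genes stayed between -0.35 and -0.23 and the number below 0 between 30 and 33 in all alternatives run. The counts of calls moved more. Genes called lower over the whole table (233) were 741 with array weights, 355 after a further quantile normalization and 40 at an adjusted p under 0.01, and those called higher (415) were 884 with array weights and 129 at 0.01. Of the 35 genes (33 with the filter at a mean of 7), 4 were called lower, against 14 with array weights, 7 after quantile normalization, 1 without both arrays with the highest medians (chosen after seeing the data) and 0 at 0.01, where 0 were called higher. With each heart left out in turn, the counts ranged from 56 to 560 lower and 170 to 614 higher over all genes, and from 0 to 9 lower and 0 to 1 higher among the 35. The cause of these shifts was not tested. Signs turned only for differences near 0: Pdk1 (0.02) was -0.04 with array weights and -0.02 after quantile normalization, Pdhx (-0.02) 0.02 and Ogdh (-0.01) 0.03 after median centring. With each heart left out, Pdk1 ranged from -0.05 to 0.11, Pdhx from -0.07 to 0.04, Ogdh from -0.04 to 0.02 and Mdh1 minus Mdh2 from -0.11 to 0.11.

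Heart numbers were not treated as pairs: deviations of same-numbered hearts correlated over genes at 0.187, 0.025, -0.107 and -0.04. With the heart number as a replicate block, 177 genes were called lower and 330 higher, 3 and 1 of them among the 35, and the pairs' shifts were the same by construction. Leaving out 1 heart, a pair of genes cannot reach an exact p under 0.0571, so the pairs have no call there.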
